A study of Mus musculus with 24 samples.

Results

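Ribosomal protein pseudogenes were measured by RNA sequencing in dendritic cells grown from the bone marrow of 3 mouse strains, with and without lipopolysaccharide (LPS). They were taken by symbol alone: every row whose name begins with Rpl or Rps and ends in -ps, with or without a number, which gave 319 of the 55291 symbols in the deposited table. Each was set beside its parent, the ribosomal protein gene whose symbol stands before -ps. The 319 pseudogenes named 64 parent symbols, of which Rpl48 had no row of its own. Rpl31 and Rps12 had the most copies, 24 each, followed by Rpl21 with 15 and by Rpl23a, Rpl7a and Rps19 with 14 each.

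Labels name the strains B6, C57 and PWD. The PWD strain was inbred from wild mice of the subspecies Mus musculus musculus; the labels do not say what sets C57 apart from B6. Marrow cells were grown with GM-CSF, the growth factor that turns them into dendritic cells, and each strain was represented by independent cultures from 4 individual mice. Which libraries share a mouse is not stated. Every strain had 4 libraries of untreated cells and 4 of cells given E. coli 0111:B4 LPS for 6 hours at 10 ng/ml, which made 6 groups and 24 libraries. No sort of the cultures is described in the labels. The dendritic cell markers Itgax, Itgam, Cd74, H2-Ab1, Csf2rb, Zbtb46 and Ccr7 were all detected, with summed levels of 7650 to 10200 TPM in untreated B6 libraries, 3670 to 4420 in C57 and 3900 to 6570 in PWD. These genes differed in order and size between strains. Untreated B6, C57 and PWD means were 5790, 1996 and 3131 TPM for Cd74 and 1473, 486 and 801.9 for H2-Ab1. They were 340.3, 308.5 and 320.9 for Itgax, 909.9, 780.9 and 868.1 for Csf2rb, and 286.2, 344.7 and 162.9 for Itgam. For Zbtb46 they were 12.54, 8.665 and 9.843, and for Ccr7 132, 42.6 and 12.81.

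Cytosolic ribosomal proteins are the protein part of the small (Rps) and large (Rpl) subunits of the ribosome, and their genes are among the most actively transcribed in any growing cell. Processed pseudogenes are copies of such mRNAs that were reverse transcribed and inserted elsewhere in the genome, without introns and usually without a promoter of their own. Because many copies still match the parent's coding sequence at nearly every base, a short read from one can be placed at the other, and reads are placed by their match to the reference genome.

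Levels are given in TPM, the usual length-scaled transcript measure, the unit the authors deposited, in which reads are divided by transcript length and scaled to a total of 1000000 per library. The read depth behind a TPM value is unknown. How the authors' counting treated reads that match more than 1 place is not stated in the sources used here, so the split of reads between each pseudogene and its near-identical parent or sister copies is uncertain for every pair below. The submitters' processing notes name mm10, the mouse reference built from the C57BL/6J strain, as the genome. No sequence of PWD was used here, so whether PWD carries the printed bases was not tested.

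The sequences show how little separates several pseudogenes whose levels differed between strains from their parents. Bases are from GENCODE M21 transcripts on mm10, in coding-sequence positions counted from 1 at the A of the parent's start codon, and capitals mark the bases at which parent and pseudogene differ. Rps26 (chr10:128624534-128626747, minus strand) encodes a small-subunit protein. Its copy Rps26-ps1 lies at chr8:107439131-107439579 on the minus strand, inside an intron of Wwp2 on the opposite strand, and differs from the parent at 2 of 348 coding bases, C30T and G270A. The stretch that holds both, at chr8:107439283-107439552 for the copy, reads as follows.
Rps26: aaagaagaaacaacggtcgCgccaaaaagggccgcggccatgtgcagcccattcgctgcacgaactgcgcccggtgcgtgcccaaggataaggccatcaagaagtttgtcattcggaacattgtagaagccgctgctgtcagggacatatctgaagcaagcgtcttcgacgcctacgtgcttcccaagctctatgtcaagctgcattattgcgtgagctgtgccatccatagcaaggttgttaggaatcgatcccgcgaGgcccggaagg
Rps26-ps1: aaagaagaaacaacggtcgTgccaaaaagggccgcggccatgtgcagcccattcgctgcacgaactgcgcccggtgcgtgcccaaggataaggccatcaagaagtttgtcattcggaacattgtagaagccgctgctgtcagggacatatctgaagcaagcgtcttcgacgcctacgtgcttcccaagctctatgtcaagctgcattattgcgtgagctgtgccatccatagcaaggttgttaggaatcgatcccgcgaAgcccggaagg

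Rpl35a (chr16:33056453-33060189, plus strand) encodes a large-subunit protein. Rpl35a-ps2, Rpl35a-ps3, Rpl35a-ps4 and Rpl35a-ps6, on chromosomes 1, 17, 2 and 5, were identical to each other over 333 bases and differed from the parent at 1 base, G156A. The stretch shown lies at chr1:181242105-181242224 on the minus strand for Rpl35a-ps2.
Rpl35a: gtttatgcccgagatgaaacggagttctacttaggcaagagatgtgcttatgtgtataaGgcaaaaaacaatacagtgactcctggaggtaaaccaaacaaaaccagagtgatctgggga
Rpl35a-ps2: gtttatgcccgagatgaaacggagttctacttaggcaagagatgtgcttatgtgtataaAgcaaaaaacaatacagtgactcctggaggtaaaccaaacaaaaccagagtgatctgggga

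Rps13 (chr7:116331505-116334195, minus strand) encodes a small-subunit protein, and its copies moved in opposite directions between strains. Rps13-ps1 (chr8:87048110-87048169, plus strand, for the stretch shown) carries T411C and A429G, while Rps13-ps2 (chr7:88530449-88530508, minus strand) matches the parent at each of the 453 coding bases it covers. Capitals mark where parent and Rps13-ps1 differ.
Rps13: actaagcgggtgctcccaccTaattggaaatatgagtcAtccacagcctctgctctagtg
Rps13-ps1: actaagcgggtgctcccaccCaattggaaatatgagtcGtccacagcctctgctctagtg
Rps13-ps2: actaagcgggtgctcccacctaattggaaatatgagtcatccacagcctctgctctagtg

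Rps18 (chr17:33951999-33956001, minus strand), a small-subunit protein gene, has copies on chromosome 13 that share A337C. Rps18-ps5 also carries T11A and A171C, and Rps18-ps6 also carries T186C, G371A and G431A. The annotation lists both under other names, Gm11361 and Gm10260, and types them as protein-coding. The stretches shown lie at chr13:28257956-28258075 (plus) for Rps18-ps5 and chr13:97760149-97760268 (minus) for Rps18-ps6.
Rps18: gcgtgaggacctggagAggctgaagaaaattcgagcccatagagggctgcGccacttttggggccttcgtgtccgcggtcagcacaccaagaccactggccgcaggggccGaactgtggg
Rps18-ps5: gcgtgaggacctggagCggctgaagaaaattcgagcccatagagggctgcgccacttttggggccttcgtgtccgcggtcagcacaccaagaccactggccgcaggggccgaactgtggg
Rps18-ps6: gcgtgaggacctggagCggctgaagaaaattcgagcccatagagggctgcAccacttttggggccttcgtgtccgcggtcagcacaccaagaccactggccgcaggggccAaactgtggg

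Rpl34 (chr3:130726831-130730398, minus strand) encodes a large-subunit protein, and Rpl34-ps1 differs from it by T132C and C318G. The stretch shown lies at chr6:71124710-71124939 (plus) for the copy.
Rpl34: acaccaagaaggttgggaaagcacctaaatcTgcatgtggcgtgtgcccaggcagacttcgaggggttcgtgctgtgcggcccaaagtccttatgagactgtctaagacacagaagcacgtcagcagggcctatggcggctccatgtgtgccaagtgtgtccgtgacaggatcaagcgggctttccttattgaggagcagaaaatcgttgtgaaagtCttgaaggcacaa
Rpl34-ps1: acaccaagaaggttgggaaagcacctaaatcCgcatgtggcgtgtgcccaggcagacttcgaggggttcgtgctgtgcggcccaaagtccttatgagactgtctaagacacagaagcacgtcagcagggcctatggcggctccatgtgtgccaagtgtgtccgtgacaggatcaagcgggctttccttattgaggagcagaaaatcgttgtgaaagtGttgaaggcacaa

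Rpl23a (chr11:78180932-78183584, minus strand) encodes a large-subunit protein, and Rpl23a-ps3 differs from it by A116T alone. It is shown because it was the copy whose level set C57 and PWD together apart from B6. The stretch shown lies at chr14:34170730-34170809 (plus) for the copy.
Rpl23a: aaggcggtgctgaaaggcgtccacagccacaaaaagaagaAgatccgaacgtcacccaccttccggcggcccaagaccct
Rpl23a-ps3: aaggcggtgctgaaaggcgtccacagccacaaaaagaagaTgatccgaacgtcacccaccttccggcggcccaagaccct

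Pseudogene TPM was far higher in PWD than in the other strains. All 319 pseudogenes together came to 445.9, 513.4, 522.5 and 559.3 TPM in the untreated B6 libraries. In untreated C57 they came to 398.4, 449.8, 465.6 and 466.4 TPM, and in untreated PWD to 4252, 4561, 4934 and 5301 TPM. Every PWD library stood above every library of the other strains, and B6 and C57 overlapped. With LPS the sums were 335.2 ± 28.7 TPM in B6, 374.6 ± 54.1 in C57 and 4229 ± 239 in PWD (mean ± SD, n = 4 each).

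The parents of the 77 pseudogenes that could be tested went the other way. Their summed level was 34450 ± 2550 TPM in untreated B6, 27370 ± 622 in C57 and 24000 ± 2150 in PWD (SD, n = 4 each), and 24870 ± 936, 21260 ± 1910 and 19840 ± 654 TPM with LPS. The pseudogenes' share of pseudogene and parent TPM together was 1.425% ± 0.113 in untreated B6, 1.56% ± 0.104 in C57 and 16.43% ± 0.176 in PWD. With LPS the share was 1.298% ± 0.103, 1.699% ± 0.19 and 17.52% ± 0.484. The PWD rise sat in few copies: the 5 highest pseudogenes held 50.46% of the pseudogene TPM in untreated PWD, against 34.6% in B6 and 39.82% in C57. In bulk RNA, fewer cells of a type and less RNA per cell cannot be told apart, and these are shares of RNA.

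**Figure D1:**
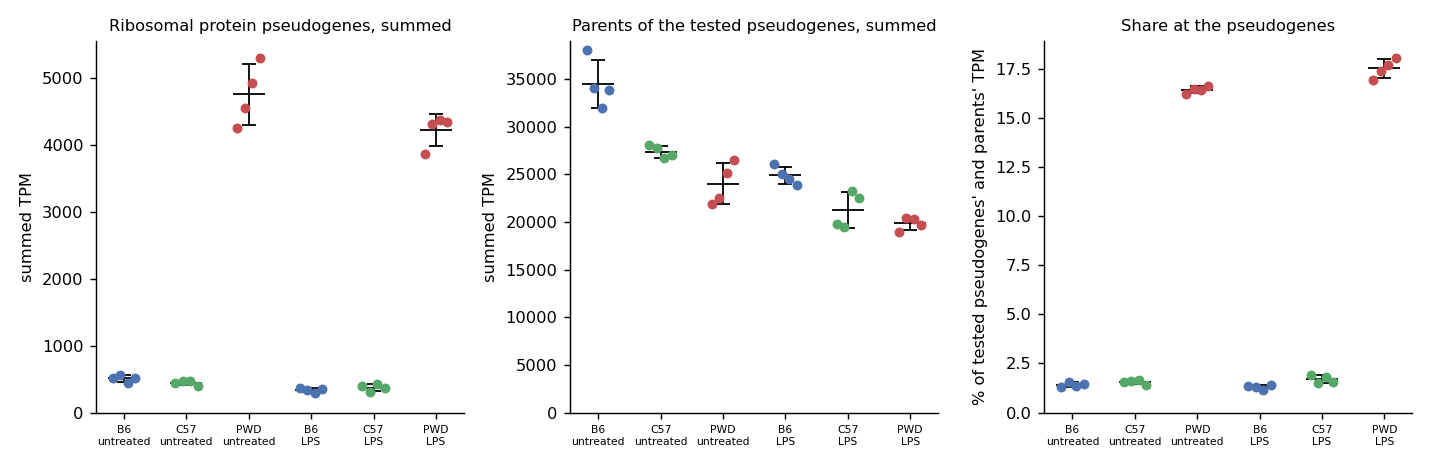
Summed TPM of all 319 ribosomal protein pseudogenes (left), of the 43 parents of the tested pseudogenes (middle) and the percent of tested-pseudogene and parent TPM at the pseudogenes (right), by strain and treatment. Points are libraries, bars mean and SD of 4; the PWD pseudogene sums of 3871 to 5301 TPM lie above all others, while the PWD parent sums are the lowest of each treatment on average.

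Most copies were low. Of the 319, 135 were listed at 0 TPM in all 24 libraries. Another 107 were above 0 but reached 1 TPM in fewer than 4 libraries and were not tested; the median of their highest values was 0.447 TPM. Among these, Rpl7a-ps11 reached 101.6 TPM in untreated PWD library 2 and was at 1 TPM or more in only 2 libraries; it is named because its value was the highest of the 107. The remaining 77 pseudogenes, copies of 43 parents, were at 1 TPM or more in at least 4 libraries. Of these, 59 passed on the B6 and C57 libraries alone, 17 passed only through the PWD libraries and 1 only over all libraries. The last 18 had to be high where they passed, so counts for the 59 are given beside the main comparison counts for the 77. Counts under other settings or with libraries left out are for the 77 alone and include these 18. No share of all genes called is given for those settings.

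Strains were compared by limma on log2(TPM + 1) across all 13246 genes at this level. A gene was called at an adjusted p under 0.05, Benjamini-Hochberg over all genes, and log2 differences on this scale understate changes of low genes. In untreated cells, 36 of the 77 pseudogenes were higher in PWD than in B6 and 14 lower (19 and 14 of the 59), where 37.2% of all genes were higher and 19.7% lower. Against C57, 37 were higher and 8 lower (20 and 8 of the 59), with 20.1% of all genes higher and 26.2% lower. With LPS, 38 were higher in PWD than in B6 and 7 lower (21 and 7 of the 59), where 49.7% of all genes were higher and 19.0% lower. Against C57 with LPS, 35 were higher and 6 lower (18 and 6 of the 59), and 24.4% of all genes were higher and 29.8% lower. Among the 59, the share higher in PWD than in B6 was below that of all genes in both treatments, and against C57 it was above. Among the 18 that needed PWD libraries to pass, 17 were higher and none lower in each of the 4 comparisons, as their choice fixed. The counts of lower calls moved with single untreated libraries, to 9 against B6 without B6 library 1, and against C57 to 5 without C57 library 1 or PWD library 3 and to 4 without PWD library 1. With LPS the 6 against C57 became 3 without C57 library 3.

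TPM values shift together between groups, with a median over all genes of 0.14 (log2) for PWD minus B6 in untreated cells and 0.28 with LPS, and -0.04 and -0.05 for PWD minus C57. Median-of-ratios scaling, which sets each library by its median gene, brought these medians to 0.004, 0.0156, -0.000588 and -0.00492. With it, the counts for PWD minus B6 became 36 higher and 17 lower in untreated cells and 37 higher and 14 lower with LPS. Those for PWD minus C57 became 37 higher and 6 lower in both treatments.

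A total of 35 pseudogenes, copies of 21 parents, were called higher in PWD than in both B6 and C57 in both treatments: 45.5% of the 77, and 18 of the 59 or 30.5%, against 14.2% of all genes tested. Pseudogenes of other gene families did the same: of the 136 other tested symbols ending in -ps, 52.9% had this pattern, and of the 84 that passed without PWD libraries 32.1%. None of the 79 cytosolic ribosomal protein genes had it. The opposite pattern, lower in PWD than in both other strains in both treatments, held for 4 pseudogenes (5.19% of the 77, 10.3% of all genes), for 25 ribosomal protein genes (31.6%) and for 15 of the 43 parents (34.9%). The other 38 tested pseudogenes had neither pattern. Outside the 35, the tested pseudogenes summed to 382.5 TPM in untreated B6, 330.6 in C57 and 409.9 in PWD. With LPS they summed to 238.9 TPM (222.5 to 272.9) in B6, 283.5 (221.5 to 338.9) in C57 and 344.4 (302.6 to 437.4) in PWD. In this sum every LPS-treated PWD library lay above every B6 library, but the copies differed in direction. Rpl30-ps9 was at 64.66 TPM on average in LPS-treated PWD and 4.69 in B6, and Rpl23a-ps3 at 54.85 and 14.09. Rpl27-ps3 was at 32.13 and 0 TPM, while Rps6-ps4 was lower in PWD, at 21.79 against 31.72. Values of Rpl30-ps9 and Rpl27-ps3 jumped within groups. The sum therefore does not show that the remaining copies in general were higher in PWD. The 35 were chosen for being higher in PWD, so a smaller strain difference in the remainder was partly fixed by that choice.

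**Figure D2:**
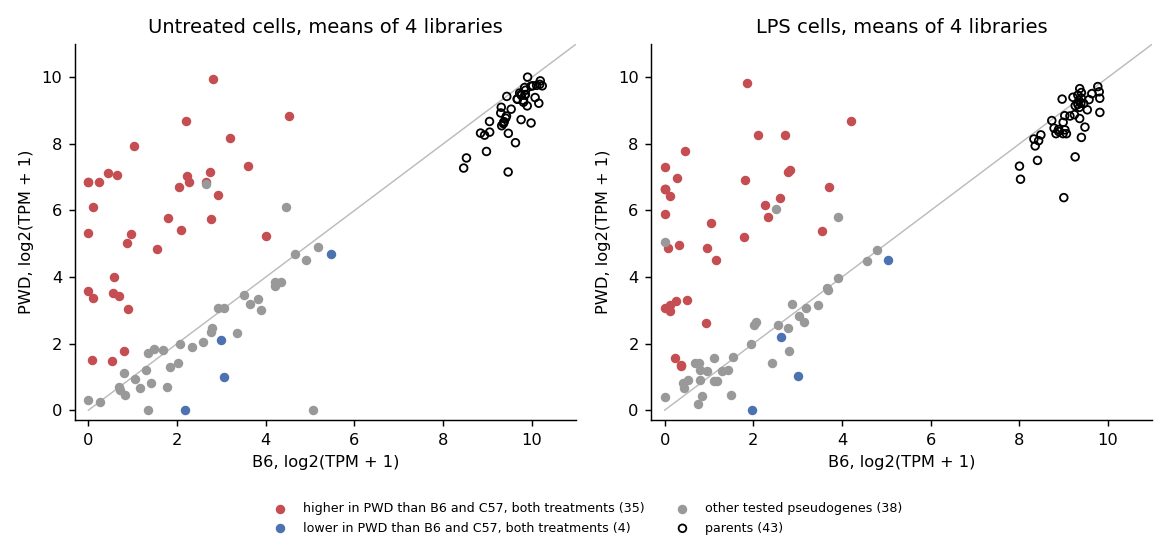
Mean log2(TPM + 1) of 4 libraries in B6 (x) and PWD (y) for the 77 tested pseudogenes and their 43 parents, untreated (left) and with LPS (right), with the line of equality. The 35 pseudogenes higher in PWD lie above the line, the 38 with neither pattern lie mostly near it, and the parents lie mostly below it.

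Copies of small-subunit genes held the highest levels. Rps26-ps1 had the highest mean over the 24 libraries of all tested pseudogenes. Its level was 4.58, 5.58, 6.34 and 7.34 TPM in untreated B6, and 3.59, 5.33, 5.86 and 8.07 TPM in C57. In untreated PWD it was 944.2, 963, 967.6 and 1068 TPM. Every PWD library stood far above every B6 and C57 library, and B6 and C57 overlapped. The difference from B6 was 7.16 ± 0.19 (log2, SE; limma adjusted p = 1.34e-19) and from C57 7.24 ± 0.19 (limma adjusted p = 1.24e-19). The parent Rps26 was at 705.6 ± 55.3 TPM in B6, 522.1 ± 22.8 in C57 and 141.6 ± 54.6 in PWD (SD, n = 4 each). In PWD the copy therefore stood above its parent, with 87.6% ± 4.0 of the pair's TPM in untreated cells and 91.6% ± 1.38 with LPS, against 0.845% ± 0.199 in untreated B6. The host gene Wwp2, a ubiquitin ligase gene, was at 32.1 ± 3.34 TPM in untreated B6, 36.6 ± 1.14 in C57 and 39.9 ± 5.94 in PWD.

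Rps24-ps3, on chromosome X, was at 19.0 to 25.6 TPM in untreated B6, 18.85 to 28.0 in C57 and 350.6 to 594.2 in PWD, a difference from B6 of 4.28 ± 0.17 (log2, SE; limma adjusted p = 5.08e-17). Its parent Rps24 was at 1140 ± 134 TPM in B6 and 595.5 ± 88.4 in PWD (SD, n = 4 each). Rps19-ps6, which lies on the same strand as its host Tecpr2 and in an intron of it, was at 7.09 to 8.98 TPM in untreated B6, 6.665 to 10.2 in C57 and 252.1 to 338 in PWD. Neither copy's PWD libraries overlapped those of the other strains. Reads from an unspliced Tecpr2 transcript could not be told apart from the copy's by strand. Tecpr2 itself was at 3.35 ± 0.616 TPM in untreated B6 and 5.65 ± 1.18 in PWD, as a gene-level value; reads in the intron were not measured. The parent Rps19 had 815.1 ± 85.0 TPM in B6 and 646.1 ± 88.2 in PWD.

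Rps18-ps6 was at 0.667 to 1.93 TPM in untreated B6, 0.331 to 1.07 in C57 and 227.5 to 255.8 in PWD, a difference from B6 of 6.97 ± 0.23 (log2, SE; limma adjusted p = 1.94e-17). Rps18-ps5 was at 2.91 to 4.64 TPM in B6, 2.13 to 4.34 in C57 and 117.4 to 136.8 in PWD. Both copies were high in every PWD library and low in all others. The parent Rps18 stood at 1010 ± 58.4 TPM in untreated B6, 787.5 ± 8.32 in C57 and 394.4 ± 38.8 in PWD. The 3 tested Rps18 copies held 49.4% ± 2.82 of the family's TPM in untreated PWD.

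The Rps13 copies went in opposite directions. Rps13-ps1, with its 2 mismatches, was at 2.52, 3.35, 4.23 and 4.26 TPM in untreated B6, 1.52, 2.31, 2.59 and 3.70 in C57, and 360.3, 382.3, 444.8 and 448.3 in PWD. Rps13-ps2, identical to the parent, was at 3.04, 3.12, 3.996 and 4.007 TPM in untreated B6, 0.707, 1.71, 3.85 and 4.52 in C57, and listed at 0 in all 8 PWD libraries. One copy was thus high in every PWD library and the other at 0 in every one. Rps13-ps1 was higher in PWD than in B6 by 6.49 ± 0.18 (log2, SE; limma adjusted p = 5.27e-20), and Rps13-ps2 was lower (adjusted p = 2.72e-08). The parent Rps13 was at 707.9 ± 41.7 TPM in untreated B6, 626 ± 9.32 in C57 and 317.8 ± 47.5 in PWD.

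Among large-subunit copies, the 4 identical Rpl35a pseudogenes had nearly equal levels in PWD: 115.9 ± 14.3 TPM for Rpl35a-ps2, 114.4 ± 13.1 for Rpl35a-ps3, 114.4 ± 6.52 for Rpl35a-ps4 and 103.4 ± 10.4 for Rpl35a-ps6 in untreated cells (SD, n = 4 each). In untreated B6, Rpl35a-ps2 and Rpl35a-ps4 were listed at 0 in all 4 libraries, Rpl35a-ps3 at 0 in 3 and 15.3 TPM in the fourth, and Rpl35a-ps6 at 0 in 3 and 12.55 TPM in the fourth. These copies cannot be told apart by their bases over the 333 positions, so only their sum can be read, and Rpl35a-ps3, -ps4 and -ps6 are named for their identity with Rpl35a-ps2 after their values were seen. The sum was 448.1 ± 40 TPM in untreated PWD, 6.97 ± 8.13 in B6 and 11.5 ± 4.54 in C57. The parent Rpl35a was at 791.4 ± 58.3 TPM in B6, 577.8 ± 10.0 in C57 and 261.2 ± 19.7 in PWD, and the copies held 63.1% ± 1.27 of the family's TPM in untreated PWD.

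**Figure D3:**
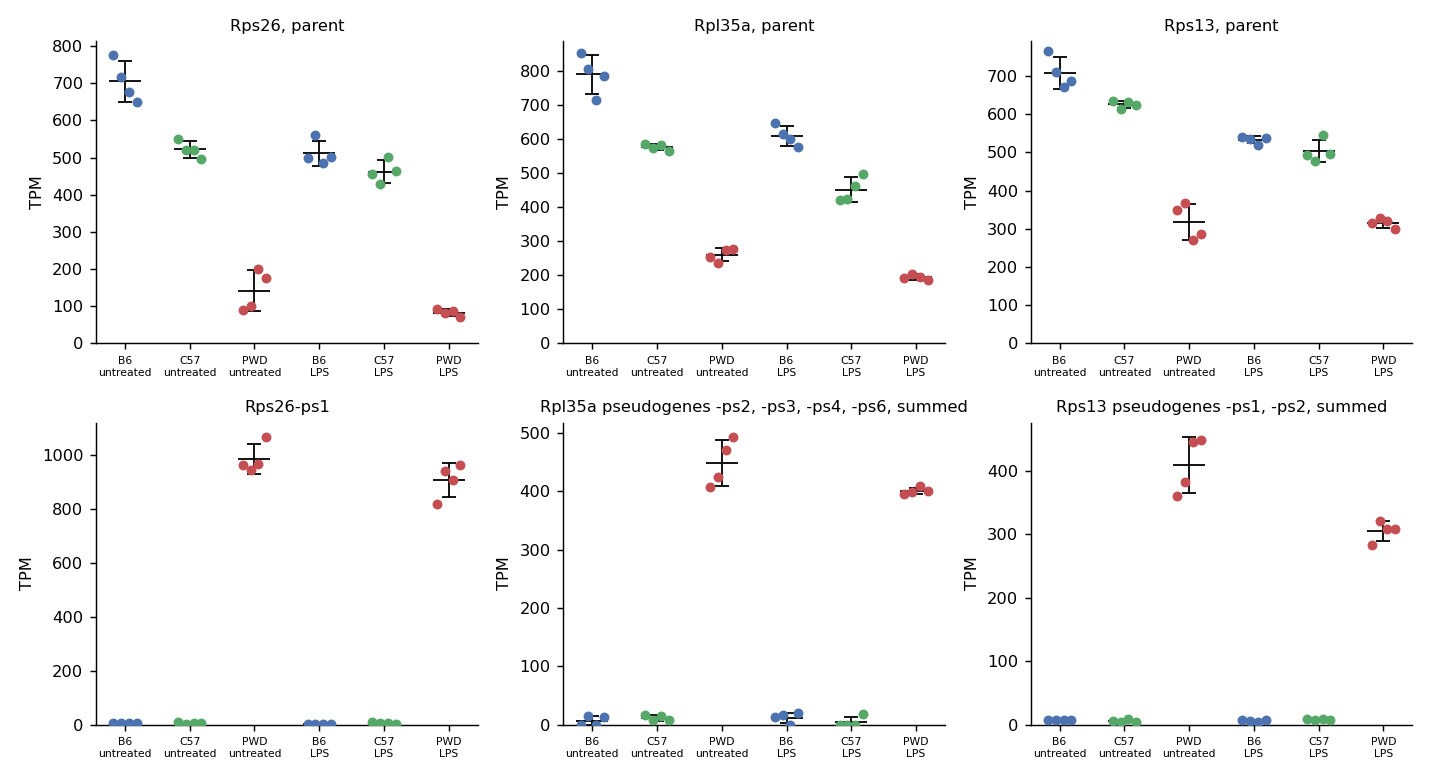
TPM of 3 parents (top) and of their tested pseudogenes (bottom; Rpl35a and Rps13 copies summed) in every library, with mean and SD of 4. Parents are lowest in PWD, at 141.6, 261.2 and 317.8 TPM in untreated cells, where the pseudogenes reach 985.6, 448.1 and 408.9 TPM.

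Rpl14-ps1, in an intron of Trpm4 on the opposite strand, was at 9.84 to 12.8 TPM in untreated B6, 7.82 to 9.56 in C57 and 126.5 to 195 in PWD, a difference from B6 of 3.74 ± 0.13 (log2, SE; limma adjusted p = 3.78e-19). Rpl34-ps1 was at 5.11 to 6.20 TPM in B6, 2.72 to 7.02 in C57 and 111.9 to 167.4 in PWD, higher than in B6 by 4.39 ± 0.28 (adjusted p = 1.91e-11). Rpl21-ps15, on chromosome X in an intron of Wnk3, was listed at 0 in 15 of the 16 B6 and C57 libraries and at 1.42 TPM in the other. In untreated PWD it was at 88.8 to 178.5 TPM, and in LPS-treated PWD at 138.9 to 185.8. None of these copies' PWD libraries overlapped the other strains' libraries. Wnk3 itself was at 0.013 TPM or below on average in each group. The parents Rpl14, Rpl34 and Rpl21 stood at 217.5 ± 13.5, 423 ± 64.2 and 153.7 ± 11.3 TPM in untreated PWD, against 502.6 ± 46.7, 864.2 ± 55.9 and 351.6 ± 27.7 in B6.

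Lower copies took part as well. Rpl15-ps2 was listed at 0 in every untreated B6 library and at 32.8 to 43.9 TPM in untreated PWD. Rpl7-ps9 was at 0.501 ± 0.437 TPM in B6 and 15.2 ± 2.50 in PWD, and Rpsa-ps7 at 0.475 ± 0.387 and 10.5 ± 1.15 TPM (SD, n = 4 each). Rps19-ps3 was called at levels near 1 TPM, 0.744 ± 0.321 in B6 and 2.41 ± 1.16 in PWD. Its groups overlapped against C57 in both treatments and against B6 with LPS.

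Each pseudogene was also set beside its parent in the same library. The measure was log2 of (pseudogene TPM + 1) over (parent TPM + 1), in which the library's scaling largely cancels. In untreated cells this ratio was higher in PWD than in B6, with no overlap of the 4 against 4 libraries, for 40 of the 77 pairs and lower for 2 (23 and 2 of the 59). Among 102 pairs of other -ps genes with their parents, 63.7% were higher without overlap and 3 pairs were lower. Against C57 the counts were 36 and 2 (20 and 2 of the 59), with 60.8% of the other pairs higher and 5 lower. The 36 include Rpl27-ps3, listed at 0 in all 8 libraries. With LPS the counts were 40 and 4 against B6 (24 and 4 of the 59), and 59.8% of the other pairs were higher and 4 lower. Against C57 with LPS the counts were 35 and 3 (19 and 3 of the 59), and 61.8% of the other pairs were higher and 3 lower. The other pairs were not split by whether they passed without PWD libraries. Of the 136 other tested -ps genes 84 did so, against 59 of the 77. Shares of the ribosomal protein pairs and of the other pairs are thus unlike in choice, and no difference between them is read.

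For Rps26-ps1 the ratio was 2.87 ± 0.53 (log2, SD, n = 4) in untreated PWD and -6.68 ± 0.30 in B6, a difference of 9.55 with an exact permutation p of 0.0286, two-sided, the smallest that 4 against 4 libraries allow. For Rpl23a-ps3 the ratio was -3.71 ± 0.16 in PWD, -3.69 ± 0.23 in C57 and -5.76 ± 0.29 in B6. Here PWD and C57 overlapped and B6 stood below both (exact permutation p = 0.0286 for each, two-sided).

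The parents were lower in PWD than in B6, with lower medians for the parents of PWD-high copies. Of the 43 parents, 40 were lower in untreated PWD than in B6 and none higher (limma), and 28 were lower and 3 higher with LPS. Against C57, 23 were lower and 4 higher in untreated cells, and 17 lower and 9 higher with LPS. Between C57 and B6, 32 were lower in C57 in untreated cells and 23 with LPS, with none higher. Among the 79 cytosolic ribosomal protein genes as a whole, 67 were lower and none higher in untreated cells, and 46 lower and 7 higher with LPS. The median PWD minus B6 difference in untreated cells was -0.71 (log2) for the 21 parents of the 35 PWD-high copies, from -2.39 in Rps26 to -0.28 in Rpsa. It was -1.10 for the 12 parents of copies at 100 TPM or more in untreated PWD. For the other 58 ribosomal protein genes it was -0.35, from -1.76 in Rps3a1 to 0.145 in Rps3. These 58 are the genes that are not parents of the 35, and copies under other kinds of name were not examined. They include Rpl23a, whose copy Rpl23a-ps3 was higher in PWD than in B6 but not than in C57. Against C57 the medians were -0.49, -0.75 and -0.01. Between C57 and B6 the medians were -0.33, -0.33 and -0.32. Under median-of-ratios scaling 42 of the 43 parents were lower in untreated PWD than in B6 and 39 with LPS, and none were higher. Against C57 they were then 21 lower and 5 higher, and 20 lower and 15 higher with LPS, and all 43 were lower in C57 than in B6 in both treatments. No share of all genes called is given for this scaling. The parents' median PWD minus B6 difference was then -0.664 (log2) untreated and -0.649 with LPS, with all genes at 0.004 and 0.0156. For PWD minus C57 the parents' medians were -0.186 and -0.101, with all genes at -0.000588 and -0.00492.

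Parents and their tested copies were also added together. The Rpl35a family summed to 798.4 ± 60.0 TPM in untreated B6, 589.3 ± 14.2 in C57 and 709.3 ± 57.2 in PWD, and Rps13 to 715 ± 41.6, 631.2 ± 10.97 and 726.7 ± 18.6. Rps24 summed to 1162 ± 135, 971.7 ± 46.6 and 1051 ± 208 TPM, and Rpl21 to 352 ± 28.4, 267.4 ± 10.97 and 292.5 ± 35.1. The PWD sum lay between the other strains in Rpl35a, Rps24 and Rpl21 and was the highest in Rps13. Rps18 came to 778.5 ± 44.1 TPM in PWD, close to C57 at 792.1 ± 8.71 and below B6 at 1016 ± 58.4. Rps26 had 1127 ± 95.6 TPM in PWD against 711.5 ± 55.0 in B6 and 527.8 ± 23.97 in C57, and Rpl34 was lowest in PWD, 563.4 ± 86.7 against 869.9 ± 56.0 and 692.4 ± 23.6. Rps19 was also highest in PWD, at 935.9 ± 128 TPM against 825.4 ± 85.8 in B6 and 707.2 ± 32.4 in C57. Rpl14 was also lowest in PWD, at 379.5 ± 47.6 TPM against 513.7 ± 48.0 in B6 and 406.6 ± 8.05 in C57. These sums are descriptions, with SD over n = 4 and no test. What produced the strain differences of copies and parents, and whether TPM moved from parent to copy, was not tested.

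Only 4 copies were lower in PWD than in both other strains in both treatments: Rps13-ps2, Rpl15-ps3, Rpl17-ps8 and Rps6-ps4, the last named after its values were seen. Rpl15-ps3 was at 0, 6.35, 10.6 and 12.1 TPM in untreated B6, 6.90, 7.86, 8.89 and 9.78 in C57, and 0, 0.408, 1.32 and 2.32 in PWD. PWD overlapped B6 through 1 library at 0 and stood below every C57 library, a difference from C57 of -2.36 ± 0.58 (log2, SE; limma adjusted p = 0.00229). Rpl17-ps8 was at 6.98 ± 1.34 TPM in untreated B6, 4.95 ± 1.55 in C57 and 3.34 ± 0.931 in PWD, with its parent Rpl17 at 637.8 ± 54.9, 460.8 ± 27.3 and 372.5 ± 21.8. Its untreated PWD libraries, at 2.53 to 4.66 TPM, overlapped those of C57, at 3.47 to 6.75. Rps6-ps4 was at 43.5 ± 8.27, 34.1 ± 2.54 and 24.7 ± 6.33 TPM, with its parent Rps6 at 897.1 ± 102, 711.5 ± 36.9 and 607.6 ± 76.7 (SD, n = 4 each). Untreated PWD libraries of Rps6-ps4, at 20.2 to 33.8 TPM, overlapped both B6 (33.2 to 51.5) and C57 (30.7 to 36.9). Rpsa-ps10 and Rpl17-ps3 were lower in PWD than in B6 in both treatments but not than in C57 in both.

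C57 and B6 differed at few copies. In untreated cells 2 of the 77 were higher in C57 and 8 lower (2 and 7 of the 59), where 31.9% of all genes were higher and 6.92% lower. With LPS 3 were higher and 2 lower (3 and 2 of the 59), against 49.1% and 9.69%. The median over all genes was 0.17 (log2) in untreated cells and 0.29 with LPS, and with median-of-ratios scaling, which set it to 0, the counts became 2 higher and 19 lower, and 3 higher and 16 lower. Without 1 library the LPS count of 5 became 8 (without LPS-treated B6 library 2 or 3) or 11 (without LPS-treated C57 library 2). The ratio to the parent was higher in C57 without overlap for 6 pairs and lower for 1 in untreated cells (3 and 1 of the 59). With LPS it was higher for 11 and lower for 1 (5 and 1 of the 59). Of the 102 other pairs, 4.9% were higher in each treatment, and 11 were lower in untreated cells and 14 with LPS. Among the higher ribosomal protein pairs, Rpl35a-ps4 in untreated cells was listed at 0 in all 8 libraries. With LPS the same held for Rpl35a-ps2, Rpl35a-ps4, Rpl35a-ps6 and Rps15a-ps8. Ratios of these copies held the parent's difference alone. Without them 5 pairs were higher in untreated cells and 7 with LPS. Without untreated B6 library 1 or 3 the untreated count of 7 became 13.

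Rpl23a-ps3 was the copy called higher in C57 than in B6 in both treatments. It was at 15.5, 16.0, 25.7 and 26.2 TPM in untreated B6, 54.4, 55.9, 80.0 and 80.8 in C57, and 54.7, 60.4, 76.6 and 76.7 in PWD. With LPS it was at 11.8 to 15.45 TPM in B6, 36.0 to 71.0 in C57 and 50.4 to 60.9 in PWD. C57 and PWD overlapped and every B6 library lay below them. C57 exceeded B6 by 1.67 ± 0.19 (log2, SE; limma adjusted p = 4.56e-07) in untreated cells and 1.80 ± 0.19 (adjusted p = 5.16e-08) with LPS, and PWD exceeded B6 by 1.66 and 1.89. The parent did not share this order: Rpl23a was at 1157 ± 93.2 TPM in untreated B6, 870.1 ± 47.9 in C57 and 883 ± 108 in PWD.

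Other C57 differences were small. In untreated cells Rps7-ps3 was at 15.2 to 20.9 TPM in B6 and 8.20 to 13.1 in C57, Rpl9-ps6 at 8.52 to 13.9 and 6.20 to 8.11, and Rpl19-ps11 at 16.6 to 19.1 and 9.50 to 13.8. Each was lower in C57 without overlap, with differences of -0.60, -0.59 and -0.51 (log2; limma adjusted p = 0.00656, 0.00803 and 0.015); Rpl19-ps11 lost its call without untreated C57 library 2 (adjusted p = 0.0659). Their parents Rps7, Rpl9 and Rpl19 were also lower in C57, at 537.6 ± 23.3, 692.7 ± 20.3 and 624 ± 30.5 TPM against 739.8 ± 92.3, 863 ± 79.3 and 897.4 ± 70.9 in B6. With LPS, Rpl9-ps4 and Rpsa-ps10 were lower in C57, at 0.630 ± 0.260 against 1.70 ± 0.459 TPM and 3.55 ± 1.17 against 6.03 ± 0.438. Rps26-ps1 was higher, at 4.035 to 8.22 TPM against 1.625 to 3.68 in B6, a difference of 0.85 ± 0.19 (log2, SE; limma adjusted p = 0.000596), which is small beside its level in PWD.

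**Figure D4:**
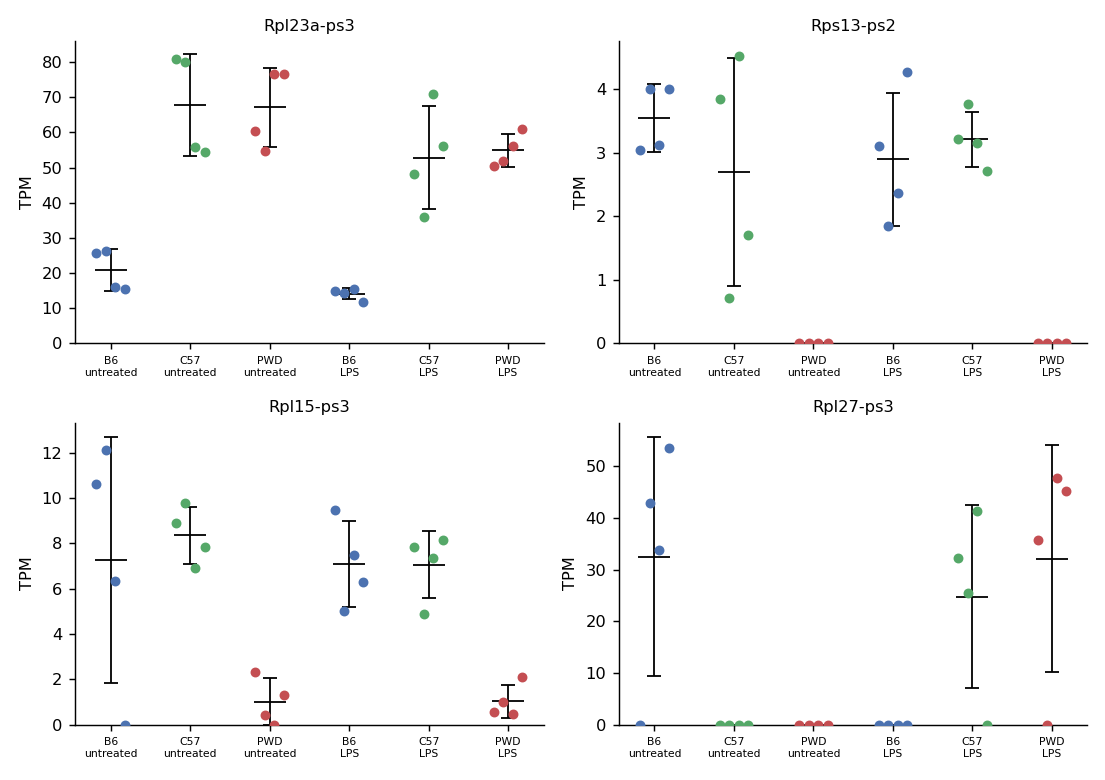
TPM in every library, with mean and SD of 4, of 4 pseudogenes without the common pattern. Rpl23a-ps3 is low in B6 alone (11.8 to 26.2 TPM), Rps13-ps2 is at 0 in PWD, Rpl15-ps3 is at 2.32 TPM or below in PWD, and Rpl27-ps3 is at 0 or at 25.4 to 53.5 TPM within single groups.

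Rpl27-ps3 matches its parent at every coding base, and its values jumped within groups. It was at 0, 33.7, 42.9 and 53.5 TPM in untreated B6, at 0, 25.4, 32.3 and 41.3 in LPS-treated C57, and at 0, 35.6, 45.1 and 47.8 in LPS-treated PWD. It was listed at 0 in all 12 libraries of the other 3 groups. The groups overlapped at 0. It was called in 7 comparisons of groups, among them PWD minus B6 in untreated cells (limma adjusted p = 0.0135), with no fold given because groups were listed at 0. The parent Rpl27 lay between 272.4 ± 8.502 TPM in LPS-treated PWD and 458 ± 14.0 in untreated B6 (SD, n = 4 each). Rpl30-ps9 also jumped in PWD, at 0, 112.6, 151.3 and 178.6 TPM in untreated and 0, 54.4, 68.0 and 136.3 in LPS-treated libraries, and was not called in any strain comparison; it is named after its values were seen.

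Most genes had lower TPM with LPS, and the copies' falls have to be read against that shift. In B6, 26 of the 77 pseudogenes were lower with LPS and none higher (24 and 0 of the 59), where 59.7% of all genes were lower and 11.9% higher, and the median was -0.41 (log2) for the 59 and -0.43 for all genes. In C57, 4 were higher and 11 lower (3 and 9 of the 59), against 10.4% and 52.2% of all genes, with medians of -0.27 and -0.32. In PWD, 1 was higher and 14 lower (1 and 9 of the 59), against 11.1% and 52.4%, with medians of -0.15 and -0.32. Without untreated PWD library 4 the PWD count of 15 became 9. With median-of-ratios scaling, which brought the medians of all genes to -0.00035, -0.023 and -0.0026, the counts were 1 higher and 8 lower in B6, 5 and 2 in C57 and 6 and 0 in PWD.

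The parents shared this dependence on scaling. By TPM, 43 of 43 parents were lower with LPS in B6, 38 in C57 and 32 in PWD, with none higher, but the direction flipped or was mixed by median-of-ratios scaling, where 14 were higher and 1 lower in B6, 5 and 10 in C57, and 16 and 4 in PWD, and no direction relative to other genes is given for them. Among copies whose treated and untreated libraries did not overlap, the largest called falls were those of Rpl36-ps2 and Rps7-ps3 in B6, Rps19-ps3 and Rps27a-ps2 in C57, and Rpl7-ps9 and Rps16-ps2 in PWD. Rps7-ps3 went from 15.2 to 20.9 TPM in untreated B6 to 6.47 to 9.89 with LPS, a difference of -1.03 ± 0.17 (log2, SE; limma adjusted p = 6.48e-06). Rpl36-ps2, in an intron of Abr, went from 2.58 ± 1.07 to 0.605 ± 0.699 TPM. With median-of-ratios scaling the calls for Rps19-ps3, Rps27a-ps2, Rpl7-ps9 and Rps16-ps2 were lost, at adjusted p of 0.0523, 0.192, 0.0583 and 0.0564. Rps27a-ps2 also lost its call without LPS-treated C57 library 2 (adjusted p = 0.103) or untreated C57 library 4 (0.0624). Rpl7-ps9 lost it with a pseudocount of 0.1 (0.0918).

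In C57, Rpsa-ps7 rose with LPS without overlap, from 0 to 0.181 TPM in untreated libraries to 0.330 to 0.669, a rise of 0.45 ± 0.14 (log2, SE; limma adjusted p = 0.00699) at levels below 1 TPM. The Rps13-ps1 level in C57 rose by 0.63 on the log2 scale at 1.52 to 5.44 TPM with overlap, while in PWD it fell from 408.9 ± 44.4 to 305.2 ± 15.7 TPM (limma adjusted p = 0.0488). The 35 PWD-high copies had a median LPS difference of -0.30 (log2) in B6, -0.06 in C57 and -0.18 in PWD. Medians of their 21 parents were -0.50, -0.36 and -0.34. Only 18 of the 35 passed the filter without PWD libraries. Copies near 0 TPM can show little fall on log2(TPM + 1), so the B6 and C57 medians of copies and parents cannot be compared. For the 18 tested pseudogenes that needed PWD libraries to pass, the medians were -0.13 in B6 and -0.01 in C57.

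The LPS responses themselves were compared between strains. PWD minus B6 was called for 4 copies in the higher direction and 1 in the lower (4 and 0 of the 59), and 23.5% of all genes were called in either direction. PWD minus C57 gave 1 higher and 2 lower (1 and 1 of the 59; all genes 11.4%), and C57 minus B6 gave 3 higher and 0 lower (3 and 0 of the 59; all genes 14.3%). With median-of-ratios scaling PWD minus B6 gave 6 higher and 0 lower. Rps26-ps1 fell with LPS in B6, by 0.97 on the log2 scale, and its response was 0.85 ± 0.27 higher in PWD and 0.93 ± 0.27 higher in C57 than in B6 (log2, SE; limma adjusted p = 0.0254 and 0.0229). Both differences rest on values of 1.625 to 7.34 TPM in B6. Rpl14-ps1 (0.65 ± 0.19, adjusted p = 0.0109) and Rps19-ps6 (0.59 ± 0.17, adjusted p = 0.0137) fell in B6 and had a higher response in PWD than in B6. The counts are small and move with single libraries: 5 became 8 without untreated B6 library 1, and 3 became 1 for PWD minus C57 without C57 LPS library 4, PWD LPS library 2 or untreated PWD library 2.

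What the strain difference shared with sequence was examined on the 307 copies that aligned to a parent's coding sequence, 75 of them tested. Median identity to the parent was 97.08% over all aligned copies, 99.38% for the tested ones and 92.2% for those listed at 0 everywhere. The ranges overlapped: 2 copies listed at 0 everywhere had no mismatch, and tested copies went down to 92.25% identity. Among the copies that passed the filter without PWD libraries, the 18 PWD-high ones had a median of 99.34% identity and 3.5 mismatches, and the 36 aligned ones with neither pattern 99.45% and 3 mismatches. Over all tested copies, which include those that passed only through PWD, the medians were 99.06% and 4 mismatches against 99.43% and 3. The 4 PWD-low copies had a median of 0 mismatches.

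Split by mismatches, 2 of 13 copies with none were PWD-high, Rpl10a-ps1 and Rpl36a-ps2, both named here after their values were seen. Of 27 copies with 1 to 3 mismatches 13 were PWD-high (7 of the 20 that passed without PWD libraries). Of 16 with 4 to 6 mismatches 7 were PWD-high (6 of 15), and of 19 with more than 6, 12 were (3 of 10). The PWD-low pattern held for 3 of the 13 copies without mismatch, for 1 of 27 with 1 to 3 and for none of the others. Rpl36a-ps2 was at 11.8 to 19.2 TPM in untreated B6 and 33.7 to 40.5 in PWD, and Rpl10a-ps1 at 4.27 to 7.30 and 46.3 to 56.5, both without overlap. These counts are descriptions with no test.

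**Figure D5:**
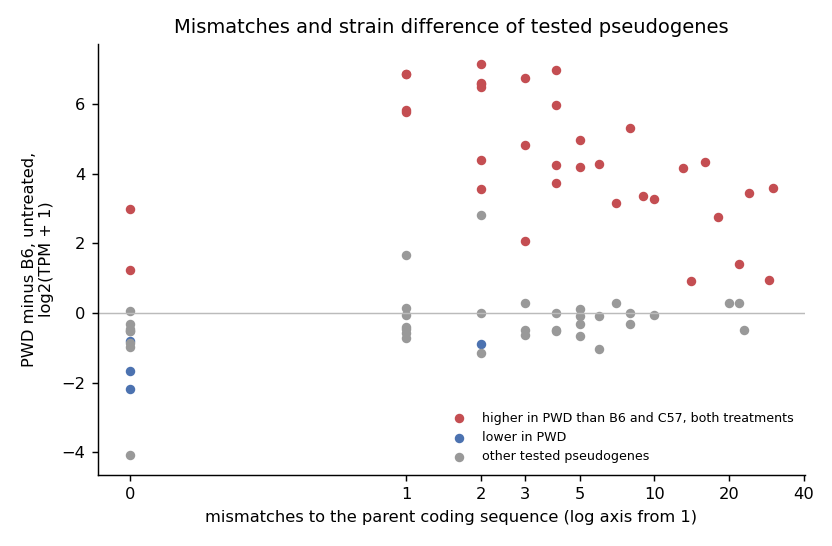
Mismatches to the parent's coding sequence on mm10 (x, log axis from 1, with 0 mismatches set apart) against the PWD minus B6 difference in untreated cells (y, log2(TPM + 1)) for the 75 tested pseudogenes that aligned. Of the 13 copies with no mismatch, Rpl10a-ps1 (2.995) and Rpl36a-ps2 (1.25) lie well above 0, and the differences over 6 belong to copies with 1 to 4 mismatches.

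The parent's reading frame began with a start codon and had no shift and no early stop in 47 of the 75 tested copies that aligned. The same held for 19 of the 34 PWD-high ones that aligned. Whether the last codon was a stop was not checked. The 34 PWD-high copies that aligned lay on 17 chromosomes, and 10 of them lay within a protein-coding gene, 4 on its strand.

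Other features also differed between the strains' libraries. Eosinophil markers (Prg2, Epx and Siglecf, all 3 detected) summed to 132 to 217 TPM in untreated PWD against 7.91 to 12.7 in B6 and 10.3 to 17.5 in C57, and macrophage markers (Adgre1, Csf1r, Mertk and C1qa, all 4 detected) to 233 to 326 against 519 to 715 and 448 to 500. Neutrophil markers (S100a8, S100a9, Ly6g and Camp, all 4 detected) summed to 1630 to 2740 TPM in untreated PWD, 1470 to 1710 in B6 and 2210 to 3670 in C57, but these genes differed in direction. S100a8 was at 346.7 ± 66.3 TPM in untreated PWD and 919.7 ± 84.3 in B6, while S100a9 was at 1780 ± 437 and 718.1 ± 31.4, Ly6g at 14.6 ± 3.35 and 4.99 ± 0.676 and Camp at 40.6 ± 9.86 and 0.740 ± 0.142 (SD, n = 4 each). Mast cell and basophil markers came to 14.8 TPM or below in untreated cells, B cell markers to 5.91 or below, red cell markers to 3.96 or below and T cell markers to 0.21 or below. The part of these cells in the copies' strain difference was not tested. Structural RNA took 28.81% to 44.22% of TPM, and in untreated PWD it was 41.93% and 40.25% in libraries 1 and 2 against 29.27% and 28.81% in libraries 3 and 4. With libraries 3 and 4 alone in untreated PWD and LPS-treated C57, an alternative chosen after seeing the data, 39 copies were higher and 9 lower in untreated PWD than in B6, and 39 higher and 5 lower than in C57.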

How the data were processed

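RNA from 24 libraries, 4 in each of 6 groups of strain and treatment, was measured as TPM in 1 deposited table. Per the labels' protocols, 1 µg of total RNA went into a stranded kit, and STAR, edgeR and mm10 are named, without versions, in the submitters' processing notes. The annotation, the counter, the TPM method and the treatment of multi-mapping reads are not stated in the sources used here. The TPM values were the authors' deposited ones, and the depth behind them is unknown, so no interval or count test was used.

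Here 110 lines with repeated symbols were summed, taking 55401 rows to 55291 symbols. The 13246 genes that reached 1 TPM in 4 libraries or more were fitted on log2(TPM + 1) with limma 3.58.1 in R 4.3.3 (6 group means, trend, robust, two-sided, Benjamini-Hochberg over all genes), after a test on simulated data. Ratios and exact tests used Python 3.11.15, numpy 2.4.6, pandas 2.3.3 and scipy 1.17.1. Sequences were aligned to the parent's coding sequence from GENCODE M21; 309 members were matched, 9 of them through a RefSeq synonym. The design text gives 4 individual mice per strain, so p-values measure the spread between cultures. With 4 untreated and 4 LPS-treated libraries per strain, some must then share a mouse, and which ones is not stated. The main fit treated all 24 libraries as independent, so its p-values for LPS and for responses left any shared mouse out of account. Same-numbered untreated and LPS-treated libraries of a strain deviated together weakly (r of 0.0513 to 0.176), and same-numbered libraries of different strains reached 0.128. These values cannot show whether equal numbers mark a shared mouse. A block for the number moved the count for LPS minus untreated in C57 by less than 1.5 times. It moved the count for the C57 minus B6 response, and the C57 minus B6 ratios without overlap, by more than that.

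The members and lists were chosen with earlier results of these data known. Named members were the 10 with the highest mean TPM among those tested, the 3 largest rises and falls without overlap in each strain comparison, the 2 largest of each in each LPS comparison, the 2 largest called differences of response in each direction, their parents and their host genes. Others are said to be named after their values were seen. Alternatives were median-of-ratios scaling, TPM without structural RNA, a pseudocount of 0.1, a filter of 5 TPM, no filter, fits to the groups compared, fits without trend and robust, a replicate block, the sum of ribosomal protein genes in place of the parent, and leaving out each library. Numbers 3 and 4 alone in untreated PWD and LPS-treated C57 were added after seeing the data.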

Additional observations from a re-analysis of the deposited data

Results flagged for a closer look

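In 150 groups of 4 libraries checked, 7 had a library far from the other 3, and chance flags about 1 in 20 such groups. The library was high for Rps18-ps6 in untreated B6 (1.93 TPM), for Rpl35a-ps2 in untreated C57 (7.40 TPM, the others at 0) and for Rpl19-ps11 in LPS-treated C57 (13.1 TPM). It was low for Rpl17-ps3 in untreated B6 (1.22 TPM), for Rps18-ps5 in untreated PWD (117 TPM), for Rpl9-ps4 in LPS-treated B6 (1.01 TPM) and for the sum of all members in LPS-treated PWD (3870 TPM).

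The LPS responses of strains differed by limma's test of the difference for 7 named members. Rpl27-ps3 differed by 8.17 (log2, PWD minus B6) and 7.88 (C57 minus B6), values that rest on the pseudocount of 1 because groups were listed at 0. Rps26-ps1 differed by 0.847 (PWD minus B6) and 0.927 (C57 minus B6), Rpl14-ps1 by 0.653 and Rps19-ps6 by 0.588 (both PWD minus B6). Rpl15-ps2 differed by -0.487 (PWD minus B6). It was listed at 0 in every B6 library but 1, so no B6 response could be measured, and its LPS difference in PWD alone was -0.421. Against C57, the PWD response differed by 0.562 for Rps19-ps6, by -1.05 for Rps13-ps1 and by -0.645 for Rpsa-ps7.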

How the results depend on the processing

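The total of called pseudogenes in each strain comparison with PWD, both directions together, and the pseudogenes' shares of TPM stayed within 1.5 times under each alternative run. The lower calls alone did not. With median-of-ratios scaling those for PWD minus B6 with LPS went from 7 to 14. With numbers 3 and 4 alone they went from 14 to 9 for PWD minus B6 untreated and from 8 to 5 for PWD minus C57 untreated. The 5 TPM filter also gave 5 for the latter, and no filter took PWD minus C57 with LPS from 6 to 3. Under median-of-ratios scaling the count of called pseudogenes went from 10 to 21 for C57 minus B6 untreated, 5 to 19 for C57 minus B6 with LPS, 26 to 9 for LPS in B6, 15 to 7 in C57 and 15 to 6 in PWD. Without structural RNA, C57 minus B6 gave 18 untreated, 8 with LPS and 7 for the response. A pseudocount of 0.1 gave 9 for C57 minus B6 with LPS, 9 for LPS in PWD and 5 for the C57 minus B6 response. Fits to only the groups compared gave 9 for C57 minus B6 with LPS and 8 for the PWD minus B6 response. Numbers 3 and 4 alone gave 10 for C57 minus B6 with LPS, 6 for LPS in C57, 26 for LPS in PWD, 5 for the PWD minus C57 response and 6 for the C57 minus B6 response. No filter gave 1 for the PWD minus C57 response, and the 5 TPM filter 5 for the C57 minus B6 response. The replicate block gave 5 for the C57 minus B6 response and, with a term for the number, moved ratios without overlap for C57 minus B6 from 7 to 13 untreated and from 12 to 25 with LPS. It changed none of the 74 named calls. Same-numbered LPS and untreated libraries correlated in their deviations with r over 0.1 in 4 of 4 pairs in C57 (0.129 to 0.176). In B6 (0.0513 to 0.17) and in PWD (0.0861 to 0.146) 3 of 4 pairs did so. Same-numbered libraries of different strains had r from -0.119 to 0.128. Libraries of a strain with different numbers were not compared, so these values cannot show whether equal numbers mark a shared mouse. The block gave 20 calls for LPS in C57 in place of 15, and 28 in place of 26 in B6 and 13 in place of 15 in PWD. The cause of these moves was not tested.

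Leaving out 1 library at a time, counts ranged in untreated cells from 45 to 52 (PWD minus B6), 40 to 44 (PWD minus C57) and 7 to 13 (C57 minus B6), and with LPS from 43 to 48, 38 to 44 and 5 to 11. LPS counts ranged from 21 to 26 in B6, 12 to 17 in C57 and 9 to 18 in PWD, and response counts from 4 to 8, 1 to 4 and 2 to 6. The last became 6 without LPS-treated B6 library 2, LPS-treated C57 library 2 or untreated C57 library 3, and 5 without untreated B6 library 2. Ratios without overlap ranged from 43 to 44, 38 to 42 and 8 to 13 untreated and 45 to 49, 38 to 44 and 13 to 18 with LPS. Shares ranged from 1.38 to 1.46%, 1.53 to 1.61% and 16.4 to 16.5% untreated, and 1.26 to 1.34%, 1.63 to 1.76% and 17.3 to 17.7% with LPS, for B6, C57 and PWD.

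Rpl23a-ps3, not called between PWD and C57, changed sign. Untreated it was 0.0394 with median-of-ratios scaling, 0.0100 without structural RNA, 0.20 with numbers 3 and 4 alone, and 0.0868, 0.0820, 0.0402 and 0.0865 without C57 library 1, C57 library 2, PWD library 1 and PWD library 2, within a range of -0.10 to 0.0868 over libraries left out. With LPS it was -0.20 with numbers 3 and 4 alone and -0.0734 without C57 library 2, where the values ranged up to 0.247. The Rps26-ps1 responses lost their calls with no filter (limma adjusted p = 0.0567 and 0.0568), with numbers 3 and 4 alone, and without LPS-treated B6 library 3 or untreated B6 library 4. Calls for the responses of Rpl15-ps2, Rps19-ps6 and Rpsa-ps7 were also lost without single libraries. With TPM the depth is unknown, so levels near 1 TPM carry unknown counting error.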
